A study of Homo sapiens with 6 samples.

Results

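The genes described here encode the scaffold and actin-linking proteins of focal adhesions, the plaques at which integrins fasten a cell to its matrix. They were taken by symbol: 35 genes, of 23290 in the deposited table, with the integrins and the kinases of the SRC family left out. All 35 symbols were found. A gene was tested where its mean over the 6 libraries was at least 1 FPKM (a fragment count scaled to transcript length and library size), which 33 of the 35 reached. NEDD9 and TNS1 did not.

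In a focal adhesion, talin and kindlin bind the tails of integrins, and talin, vinculin, filamin and alpha-actinin carry force between the integrin and actin filaments. Paxillin and p130Cas, both substrates of SRC, are scaffolds that recruit adaptors and exchange factors for Rac, while the complex of ILK, PINCH and parvin ties integrins to actin by another route. Zyxin brings in the actin polymerases of the Ena/VASP family, and RhoA with its kinases ROCK1 and ROCK2 drives the contraction that makes adhesions mature. In glioblastoma cells these plaques are known for their part in migration and invasion.

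The samples were cultures of U87, an established human glioblastoma line, grown in DMEM with 10% FBS. In the shC8 group (3 libraries) a retrovirus silenced Caspase-8, a protease of death receptor signalling that SRC can phosphorylate. In the shCTR group (3 libraries) the retrovirus carried a scramble sequence. Libraries in both groups were stranded and came from DNase-treated total RNA after removal of ribosomal RNA. The sequence and number of the hairpins are not given in the sources used here, so the silenced cells may represent a single hairpin. The replicates are called biological without a word on separate cultures or infections, so a p-value here covers the spread among these 6 libraries, which may be technical.

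CASP8 itself was at 4.39, 4.46 and 4.44 FPKM in the shC8 libraries, against 15.1, 14.9 and 13.4 FPKM in the shCTR libraries. It thus remained at 30.6% of its shCTR mean, a log2 change of -1.51 (limma adjusted p = 0.000206; exact two-sided permutation p = 0.1, the smallest that 3 libraries against 3 allow). Correlations between libraries on the log2 scale were 0.984 to 0.988 within groups and 0.968 to 0.981 between them. Relative depth was estimated, without counts, as the most common FPKM ratio among 723 to 821 genes of very low FPKM. The estimate was 1.08 to 1.2 times that of shCTR replicate 1, and absolute depth is unknown. Of the glioma markers, VIM was at 3640 to 3862 FPKM in shC8 and 3806 to 4713 FPKM in shCTR. CD44 fell to 269 FPKM in shC8, against 366 FPKM in shCTR (limma adjusted p = 0.0131), and NES rose to 11.1 FPKM in shC8, against 6.95 FPKM in shCTR (limma adjusted p = 0.0293, lost without shC8 replicate 2, shC8 replicate 3, shCTR replicate 1 or shCTR replicate 3). Of 14 markers of other cell types, 12 were under 1.5 FPKM in every library, with AQP4 and CD3E listed at 0, and the exceptions were CD68 and SNAP25. Their summed level was 151 to 168 FPKM in shC8 and 167 to 177 FPKM in shCTR, and its part in the results was not tested.

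Most differences were small, as they were over all genes. Of the 33 tested genes, 26 differed by less than 0.25 on the log2(FPKM + 1) scale, as did 8616 of all 11598 tested genes. The median log2 change was 0.02, against 0.04 over all tested genes. FERMT2, TLN2 and VASP rose and LIMS1 fell (limma, Benjamini-Hochberg adjusted p under 0.05 over all tested genes). That is 4 of 33, or 12.1%, and the share over all tested genes was also 12.1%. By direction, 3 of the 33 rose, where 7.14% of all genes did, and 1 fell, where 4.94% did. The share called among the adhesion genes equalled that of the whole table. In bulk RNA, fewer cells that express a gene and less of its RNA per cell cannot be told apart. Without 1 library the 4 calls became 2 (without shC8 replicate 2), 1 (without shC8 replicate 3), 2 (without shCTR replicate 1) or 2 (without shCTR replicate 2). Over all genes the 1401 calls became 574, 477, 642 and 644 in the same fits. With median-of-ratios scaling TLN1 and ACTN1, both lower, were called as well.

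Libraries with the same replicate number deviated together in both groups, and with the number as a block in the limma fit 13 of the 33 were called (39.4%; 26.6% of all genes). Of these, 9 were higher in shC8 (16.1% of all genes were) and 4 were lower (10.6% of all genes were). The 9 added genes were CAV1, ACTN4, FLNA, ENAH, EVL and ROCK2, all higher, and TLN1, ACTN1 and ROCK1, all lower. The 3 libraries of each group did not overlap for 14 of the 33 genes (42.4%), 9 higher and 5 lower in shC8, against 34.8% of all genes.

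The numbers in the deposited column names fall in a lower range (shC8 replicate 1, shCTR replicates 1 and 3) and an upper range (shC8 replicates 2 and 3, shCTR replicate 2), whose meaning is not stated. Within the lower and the upper range the log2 difference was 0.46 and 0.58 for FERMT2, 0.44 and 0.66 for TLN2, 0.38 and 0.22 for VASP, and -0.51 and -0.35 for LIMS1. For ENAH it was 0.06 and 0.49. Each of these differences rests on 1 library on a side, in shC8 for the lower range and in shCTR for the upper.

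**Figure D1:**
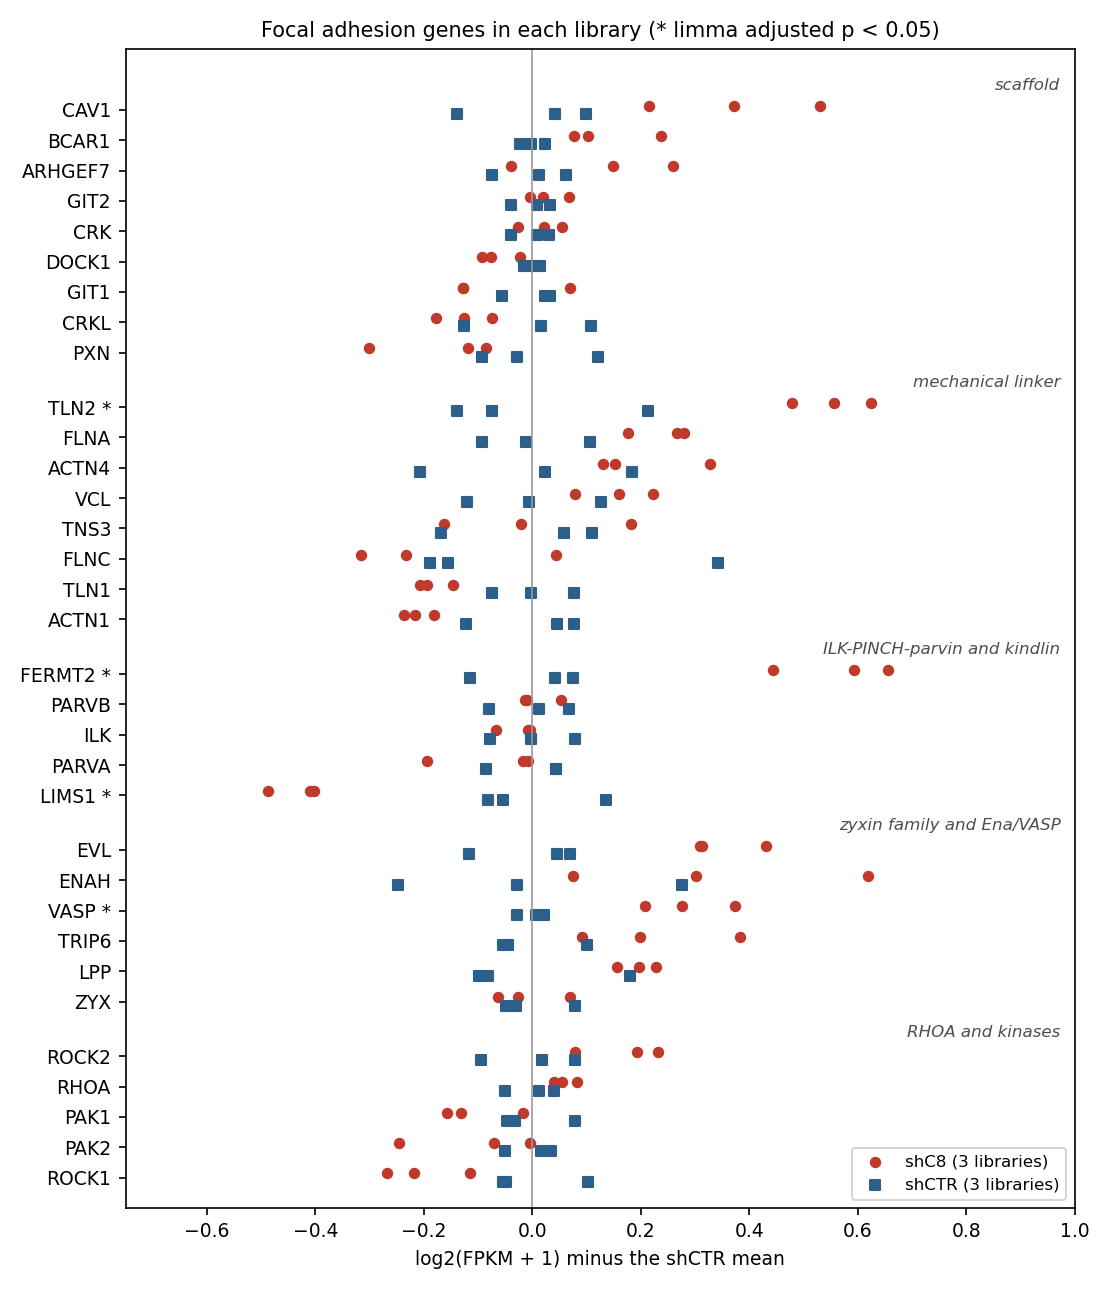
Each tested focal adhesion gene in each library, as log2(FPKM + 1) minus the mean of the shCTR libraries, grouped by role and ordered within a role by its change; circles are the 3 shC8 libraries and squares the 3 shCTR libraries. The 4 starred genes passed limma's adjusted p of 0.05. FERMT2, TLN2 and LIMS1 had the largest log2 changes between groups (0.56, 0.55 and -0.43), though single libraries of other genes also lie far from 0.

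FERMT2 encodes kindlin-2, which binds integrin tails beside talin and is needed for integrin activation. It was at 38.8, 43.1 and 45.1 FPKM in the shC8 libraries, against 26.0, 29.1 and 29.8 FPKM in the shCTR libraries. Every shC8 library lay above every shCTR library. The means were 42.3 ± 3.25 FPKM in shC8 and 28.3 ± 2.02 FPKM in shCTR (SD, n = 3 each), a rise of 49.5%. The log2 change was 0.56 (SE 0.082, limma adjusted p = 0.00819), it was 0.56, 0.55 and 0.58 in the pairs of replicates 1, 2 and 3, and the call held without each library in turn. The gene lies at chr14:52857268-52952435 on the minus strand (GRCh38, GENCODE 29).

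TLN2, the less abundant talin in these cells, was at 5.86, 6.24 and 6.59 FPKM in the shC8 libraries, against 3.47, 3.68 and 4.71 FPKM in the shCTR libraries. The groups were apart, with shCTR replicate 3 the nearest to shC8. The log2 change was 0.55 (SE 0.107, limma adjusted p = 0.0197). The call was lost without shC8 replicate 2, shC8 replicate 3, shCTR replicate 1 or shCTR replicate 2, with limma adjusted p up to 0.0762, and with no filter on low values. TLN2 lies at chr15:62390526-62844631 on the plus strand.

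LIMS1 encodes PINCH1, the adaptor that bridges ILK to other proteins of its complex, and it was the gene that fell. It was at 38.4, 40.8 and 40.6 FPKM in the shC8 libraries, against 59.7, 52.2 and 51.2 FPKM in the shCTR libraries. The groups did not overlap, and the mean was 39.9 ± 1.29 FPKM in shC8 and 54.4 ± 4.63 FPKM in shCTR (SD, n = 3 each). The log2 change was -0.43 (SE 0.0748, limma adjusted p = 0.0138), and without shC8 replicate 3 the adjusted p was 0.0521. LIMS1 lies at chr2:108534355-108687246 on the plus strand. Its near copies LIMS2 and LIMS3 were at most 0.122 FPKM in any library, and how reads that fit more than 1 of these genes were divided is not given in the sources used here.

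VASP, an actin polymerase that protects growing filament ends from capping, was at 24.9, 22.1 and 23.2 FPKM in the shC8 libraries, against 18.6, 19.3 and 19.1 FPKM in the shCTR libraries. The groups did not overlap. The log2 change was 0.29 (SE 0.0651, limma adjusted p = 0.0329). VASP was not called without any 1 library, with adjusted p of 0.055 to 0.0997. The gene lies at chr19:45506579-45526983 on the plus strand.

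**Figure D2:**
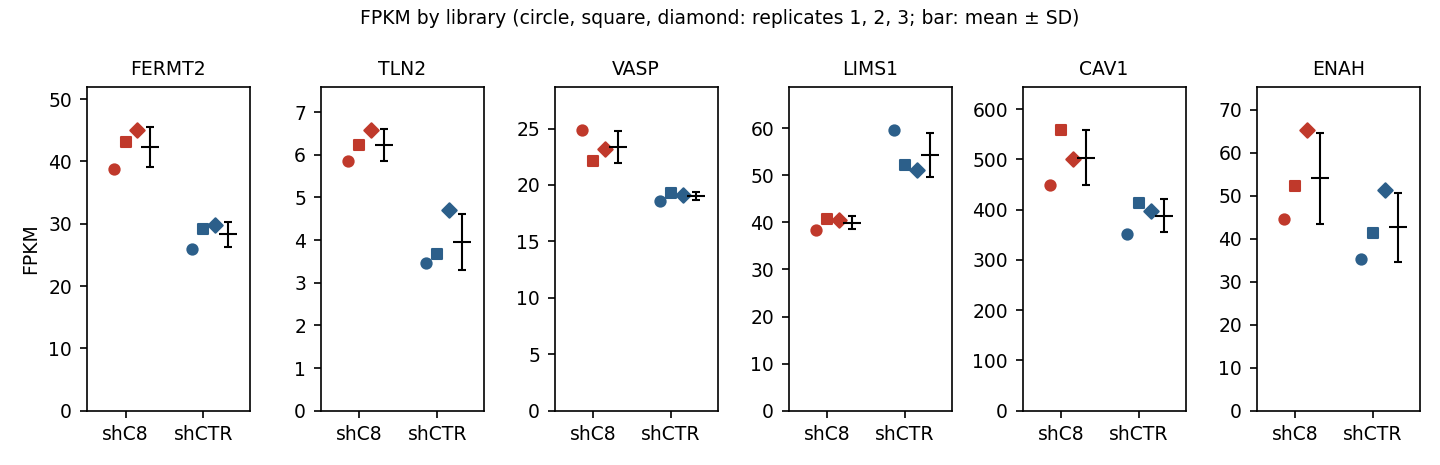
FPKM of FERMT2, TLN2, VASP, LIMS1, CAV1 and ENAH in each library, shC8 left and shCTR right, with mean and SD beside the points; circles, squares and diamonds are replicates 1, 2 and 3. All panels start at 0, and only the ENAH panel shows groups that overlap.

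The start regions of the 4 genes that passed the test are shown so that their base composition can be seen beside their change. Each is the RefSeq window (GRCh38.p14) of 250 bases before to 50 bases after an annotated start, and for LIMS1 the first of 4 such windows. Capitals mark matches, on either strand, to any of the CArG, NF-kB, AP-1, TEAD and GC box motifs.
FERMT2 chr14:52951001-52951300 (minus strand): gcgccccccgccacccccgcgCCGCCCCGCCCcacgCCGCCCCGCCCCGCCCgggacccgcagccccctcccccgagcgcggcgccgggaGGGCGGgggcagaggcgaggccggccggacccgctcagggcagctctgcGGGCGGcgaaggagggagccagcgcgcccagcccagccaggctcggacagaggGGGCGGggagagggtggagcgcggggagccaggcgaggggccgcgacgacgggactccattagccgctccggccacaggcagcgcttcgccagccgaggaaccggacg
TLN2 chr15:62390300-62390599 (plus strand): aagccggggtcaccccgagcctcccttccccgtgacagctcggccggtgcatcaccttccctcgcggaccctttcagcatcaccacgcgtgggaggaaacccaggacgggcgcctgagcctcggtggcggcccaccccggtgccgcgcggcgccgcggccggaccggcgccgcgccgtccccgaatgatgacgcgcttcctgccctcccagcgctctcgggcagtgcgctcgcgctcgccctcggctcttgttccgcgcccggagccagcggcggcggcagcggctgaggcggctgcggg
VASP chr19:45507229-45507528 (plus strand): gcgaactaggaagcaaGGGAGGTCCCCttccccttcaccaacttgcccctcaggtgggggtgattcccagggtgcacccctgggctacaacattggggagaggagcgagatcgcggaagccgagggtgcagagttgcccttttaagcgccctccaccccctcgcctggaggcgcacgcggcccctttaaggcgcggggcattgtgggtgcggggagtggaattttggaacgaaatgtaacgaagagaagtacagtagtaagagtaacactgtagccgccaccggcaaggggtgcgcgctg
LIMS1 chr2:108534220-108534519 (plus strand): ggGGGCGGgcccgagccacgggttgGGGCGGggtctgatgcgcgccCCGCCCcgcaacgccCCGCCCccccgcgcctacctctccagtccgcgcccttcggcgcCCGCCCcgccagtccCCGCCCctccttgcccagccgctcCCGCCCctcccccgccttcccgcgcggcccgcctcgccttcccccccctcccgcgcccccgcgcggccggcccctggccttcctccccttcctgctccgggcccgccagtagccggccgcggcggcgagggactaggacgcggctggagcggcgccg
GC content was 82% for FERMT2, 76% for TLN2, 61.3% for VASP and 83.3% for LIMS1, against a median of 58.7% over all windows. FERMT2 held 8 matches to the GC box and the first LIMS1 window held 7. Another LIMS1 window held a match to AP-1. Which start was in use was not measured, and a link between the motifs and the changes was not tested. VASP held 2 overlapping matches to the NF-kB motif, and TLN2 held none of the 5 motifs.

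Windows were listed for 34 of the 35 genes, 70 in all, and were searched on both strands for 5 motifs. The CArG box, which serum response factor binds, was in 5.71% of the 70 windows and in 1.29% of all 35116 windows. The NF-kB motif was in 22.9% of the 70 and 11.3% of all, AP-1 (TGANTCA) in 11.4% and 7.71%, the TEAD motif (GGAATG) in 15.7% and 14%, and the GC box (GGGCGG) in 57.1% and 45%. A match is a description of the letters, and binding was not measured. The CArG matches were in windows of ROCK2, LPP, ACTN1 and FLNA, shown here with the match in capitals.
ROCK2 chr2:11345476-11345535 (minus strand): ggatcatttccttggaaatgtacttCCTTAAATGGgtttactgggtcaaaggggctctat
LPP chr3:188212504-188212563 (plus strand): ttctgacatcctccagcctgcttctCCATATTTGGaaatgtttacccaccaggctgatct
ACTN1 chr14:68977703-68977762 (minus strand): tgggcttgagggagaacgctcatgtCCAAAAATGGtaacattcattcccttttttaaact
FLNA chrX:154374694-154374753 (minus strand): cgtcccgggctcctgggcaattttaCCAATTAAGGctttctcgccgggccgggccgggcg
None of these 4 genes passed limma's adjusted threshold (adjusted p = 0.175 for ROCK2, 0.199 for LPP, 0.0923 for ACTN1 and 0.0752 for FLNA). With the replicate block ROCK2, ACTN1 and FLNA passed it and LPP did not (adjusted p = 0.141). The log2 differences were 0.17 for ROCK2, 0.19 for LPP, -0.21 for ACTN1 and 0.24 for FLNA.

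Among the scaffold proteins none of 9 tested genes passed limma's adjusted threshold (12.1% of all genes did), 1 had an unadjusted p under 0.05 (29.7% of all genes did) and 1 was called with the replicate block (26.6% of all genes were). That gene was CAV1, the coat protein of caveolae, which SRC phosphorylates. CAV1 was at 449, 559 and 501 FPKM in the shC8 libraries, against 351, 414 and 398 FPKM in the shCTR libraries, with no overlap. Its log2 change was 0.37 (SE 0.105, limma adjusted p = 0.059; 0.00554 with the replicate block). Of the 6 fits that left out a library, 1 called it (without shC8 replicate 1, limma adjusted p = 0.0376). In the others it was not called, with limma adjusted p up to 0.162.

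PXN, which encodes paxillin, averaged 38.1 ± 3.07 FPKM in shC8 and 42.9 ± 3.39 FPKM in shCTR, and BCAR1, which encodes p130Cas, averaged 54.7 ± 3.39 FPKM in shC8 and 49.6 ± 0.789 FPKM in shCTR (SD, n = 3 each). Their log2 changes were -0.17 and 0.14 (limma adjusted p = 0.233 and 0.199). The adaptors CRK and CRKL, which join p130Cas to exchange factors, had log2 changes of 0.02 and -0.13, and DOCK1, a Rac exchange factor, -0.06. GIT1 and GIT2, which bind paxillin, had -0.06 and 0.03, and their partner ARHGEF7 (beta-PIX) 0.12. NEDD9, the relative of p130Cas, was at 0.135, 0.149 and 0.0766 FPKM in shC8 and 0.0484, 0.0416 and 0.0397 FPKM in shCTR, too low to test.

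Of the 8 tested mechanical linkers, TLN2 rose (12.5%, where 12.1% of all genes were called), and with the replicate block 2 more were higher and 2 were lower (5 of 8, or 62.5%, where 26.6% of all genes were called). TLN1, the main talin, was at 55.3, 57.7 and 55.8 FPKM in shC8, against 60.7, 63.9 and 67.6 FPKM in shCTR (log2 change -0.18, limma adjusted p = 0.0994; 0.0451 with the block). ACTN1, an alpha-actinin that cross-links filaments, was at 57.3, 59.6 and 58.1 FPKM in shC8, against 62.1, 71.5 and 69.9 FPKM in shCTR (log2 change -0.21, limma adjusted p = 0.0923; 0.0322 with the block). In both genes every shC8 library was below every shCTR library.

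The other alpha-actinin, ACTN4, was at 182, 185 and 209 FPKM in shC8, against 144, 169 and 189 FPKM in shCTR, and the groups overlapped (log2 change 0.20, limma adjusted p = 0.26; 0.0481 with the block). FLNA, the filamin that also binds integrin tails, was at 198, 199.7 and 186 FPKM in shC8, against 154, 163 and 177 FPKM in shCTR (log2 change 0.24, limma adjusted p = 0.0752; 0.0465 with the block). Its shC8 libraries all lay above its shCTR libraries. VCL, which encodes vinculin, had a log2 change of 0.15 (limma adjusted p = 0.248). FLNC, a filamin best known in muscle, had -0.16 and was higher in shCTR replicate 3 (160 FPKM) than in any other library. TNS3, a tensin, was at 2.65 FPKM in both groups, and TNS1 was at most 0.447 FPKM in any library.

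In the ILK group of 5 genes, FERMT2 rose, LIMS1 fell and the other 3 did not pass the test, with or without the block (2 of 5 called, where 12.1% of all genes were called without the block and 26.6% with it). ILK, the pseudokinase at the core of the complex, averaged 95.7 ± 2.34 FPKM in shC8 and 97.5 ± 5.26 FPKM in shCTR (SD, n = 3 each). The actin-binding parvins had log2 changes of -0.07 (PARVA) and 0.01 (PARVB).

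The zyxin and Ena/VASP group had the highest median of the 5 groups, a log2 change of 0.26 over 6 genes. In it 5 of 6 were above 0, where 6717 of all 11598 tested genes were. All 3 Ena/VASP genes were higher on average in shC8. VASP passed the test, and EVL and ENAH did so with the replicate block (1 of 6 genes in the group, then 3 of 6, where the shares of all genes were 12.1% and 26.6%). EVL, the third member of the family, was at 2.61, 2.62 and 2.93 FPKM in shC8, against 1.69, 2.06 and 2.01 FPKM in shCTR (log2 change 0.35, limma adjusted p = 0.0501; 0.0282 with the block), and it was also called without the mean trend. ENAH, which encodes Mena, was at 44.5, 52.3 and 65.4 FPKM in shC8, against 35.4, 41.4 and 51.3 FPKM in shCTR. The ENAH groups overlapped, but its log2 difference was 0.32, 0.33 and 0.35 in the pairs of replicates 1, 2 and 3, and the limma adjusted p was 0.233, or 0.00562 with the block.

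ZYX, by contrast, averaged 62.1 ± 2.96 FPKM in shC8 and 62.3 ± 3.06 FPKM in shCTR (SD, n = 3 each). Its relatives LPP and TRIP6, LIM proteins of the same plaques, had log2 changes of 0.19 and 0.23 (limma adjusted p = 0.199 and 0.141).

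Among RHOA and the kinases none of 5 passed limma's adjusted threshold, 1 had an unadjusted p under 0.05 and 2 were called with the block, where the shares of all genes were 12.1%, 29.7% and 26.6%. ROCK1 was at 22.2, 23.0 and 24.8 FPKM in shC8, against 26.0, 25.9 and 29 FPKM in shCTR (log2 change -0.20, limma adjusted p = 0.118; 0.0295 with the block). ROCK2 was at 25.6, 27.8 and 28.6 FPKM in shC8, against 22.6, 24.5 and 25.6 FPKM in shCTR (log2 change 0.17, limma adjusted p = 0.175; 0.0454 with the block). The ROCK2 groups did not overlap, but the highest shCTR and the lowest shC8 library were both at 25.6 FPKM to 3 digits. RHOA averaged 413 ± 6.28 FPKM in shC8 and 397 ± 12.8 FPKM in shCTR, and PAK1 and PAK2, kinases downstream of Rac, had log2 changes of -0.10 and -0.11.

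The balance between related genes was compared in 14 pairs, as the log2 ratio of (FPKM + 1) in each library. An exact permutation test of 3 against 3 cannot go below p = 0.1 (0.35 adjusted over the 14 pairs), so the ratios are a description. In 4 of the 14 pairs the groups did not overlap, where 34.8% of all single genes did not. No such share was computed over pairs of other genes. TLN2 was 9.57% to 10.6% of the talin FPKM in shC8 and 5.4% to 6.51% in shCTR, a log2 ratio higher by 0.74. ROCK2 was 53.5% to 54.7% of the ROCK FPKM in shC8 and 46.5% to 48.6% in shCTR. The shares are close, and FPKM of 2 genes compares only as well as their annotated lengths, which are not given. Which kinase had more transcripts is therefore not known. Neither gene passed the main fit (limma adjusted p = 0.118 for ROCK1 and 0.175 for ROCK2). The log2 ratio of ACTN4 to ACTN1 was higher by 0.42 in shC8, and that of TRIP6 to ZYX by 0.23. The ratios of ENAH and EVL to VASP overlapped and differed by 0.05 and 0.06, and the ratio of PAK2 to PAK1 by -0.01.

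**Figure D3:**
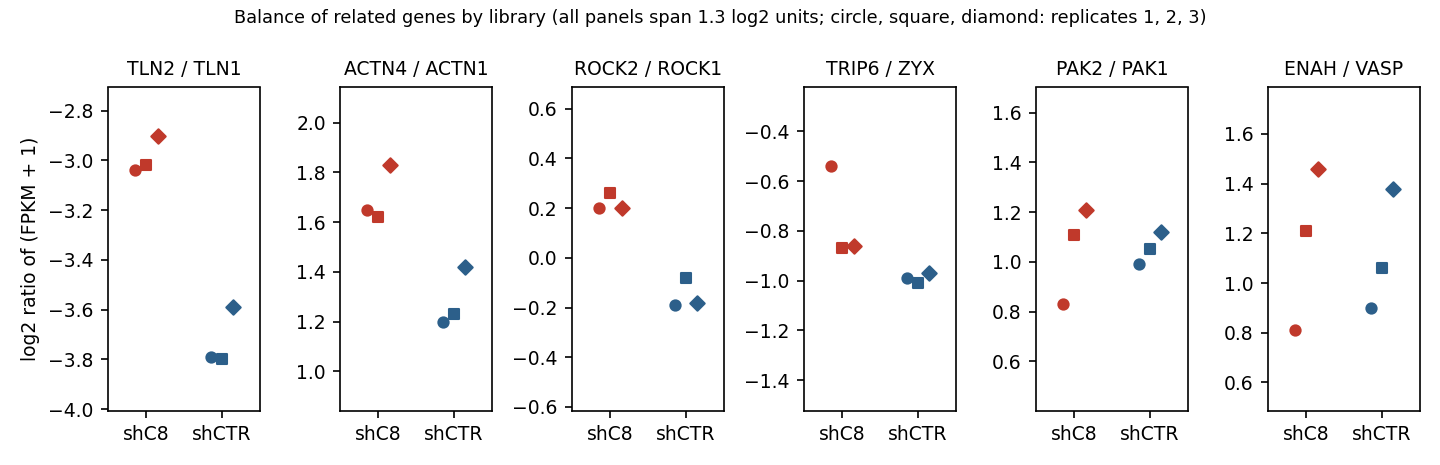
Log2 ratio of (FPKM + 1) of related genes in each library, shC8 left and shCTR right; circles, squares and diamonds are replicates 1, 2 and 3, and every panel spans the same range. The TLN2/TLN1, ACTN4/ACTN1, ROCK2/ROCK1 and TRIP6/ZYX ratios do not overlap between groups, while PAK2/PAK1 and ENAH/VASP do.

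The wider adhesion and contractility genes were read from other lists in the same fit. Of 40 tested genes for other adhesion proteins, none rose and 6 fell (15%; 12.1% of all genes), with an unadjusted p under 0.05 for 8 higher and 12 lower (18.3% and 11.4% of all genes). With the block 6 were higher and 12 lower (16.1% and 10.6% of all genes). Without shC8 replicate 3 or without shCTR replicate 2, 3 were called, where 477 and 644 of all 11598 tested genes were. SVIL, an actin-bundling protein, fell to 21.3 FPKM in shC8, against 37.2 FPKM in shCTR (log2 change -0.77, limma adjusted p = 0.00573). LPXN, the paxillin relative leupaxin, fell to 29.9 FPKM in shC8, against 50.2 FPKM in shCTR (log2 change -0.73, limma adjusted p = 0.00177), where PXN had -0.17. CAPN2, a protease that cleaves talin, fell by 0.60 on the log2 scale and ARHGEF6 (alpha-PIX) by 0.42, where its relative ARHGEF7 had 0.12 (limma adjusted p = 0.00477 for CAPN2, 0.02 for ARHGEF6 and 0.395 for ARHGEF7). Of these calls, that of ARHGEF6 was lost without shC8 replicate 3, shCTR replicate 1 or shCTR replicate 2.

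Of 34 actomyosin genes, 6 rose and 2 fell (23.5%; 12.1% of all genes were called, 7.14% higher and 4.94% lower). With the block 8 were higher and 3 lower (32.4%; 26.6% of all genes). MYL9, a regulatory light chain that ROCK and myosin light chain kinase act on, rose to 63.9 FPKM in shC8, against 30.9 FPKM in shCTR (log2 change 1.03, limma adjusted p = 0.00177). Its relatives MYL12A and MYL12B, named after their values were seen, were at higher FPKM and were not called. MYL12A was at 355 FPKM in shC8 and 338 FPKM in shCTR (log2 change 0.07, limma adjusted p = 0.605). MYL12B was at 371 FPKM in shC8 and 329 FPKM in shCTR (log2 change 0.16, limma adjusted p = 0.344). MYLK, which encodes myosin light chain kinase, rose by 0.75, CNN1 (calponin) by 0.78 and MYL6, an essential light chain, by 0.34 on the log2 scale (limma adjusted p = 0.041, 0.0486 and 0.0499). These 3 calls were lost with the range of column numbers as a term (limma adjusted p = 0.0677 for MYLK, 0.0577 for CNN1 and 0.0662 for MYL6). Without 1 library MYLK was called in 2 of 6 fits, CNN1 in 1 of 6 and MYL6 in 0 of 6. The 2 that fell, TPM4 and CFL2, are named after their values were seen. The split depended on the scaling, with 4 higher and 4 lower after quantile normalization and 1 higher and 3 lower after median-of-ratios scaling. The 8 calls became 1 without shC8 replicate 2, shC8 replicate 3 or shCTR replicate 2, 2 without shCTR replicate 1 and 4 without shCTR replicate 3. Over all genes the 1401 calls became 477 to 840 in these fits. MYL9 was called in each of these fits.

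Of 8 caveola genes none passed limma's adjusted threshold, with an unadjusted p under 0.05 for 2 higher and 2 lower (18.3% and 11.4% of all genes). Without shC8 replicate 1, 3 were called (1346 of all 11598 genes were), and without shCTR replicate 2, 1 was called (644 of all genes were). With the block 2 were higher and 1 was lower (16.1% and 10.6% of all genes), named after their values were seen: PTRF (cavin-1) at 208 FPKM in shC8 and 159 FPKM in shCTR, PRKCDBP (cavin-3) at 81.2 FPKM in shC8 and 58.7 FPKM in shCTR, and EHD1 at 64.5 FPKM in shC8 and 79.2 FPKM in shCTR. Of 3 tested genes for SRF and its coactivators, none passed the adjusted limma threshold, and 1 was called with the block (26.6% of all genes). An unadjusted p under 0.05 was found for 1 higher and 1 lower (18.3% and 11.4% of all genes).

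**Figure D4:**
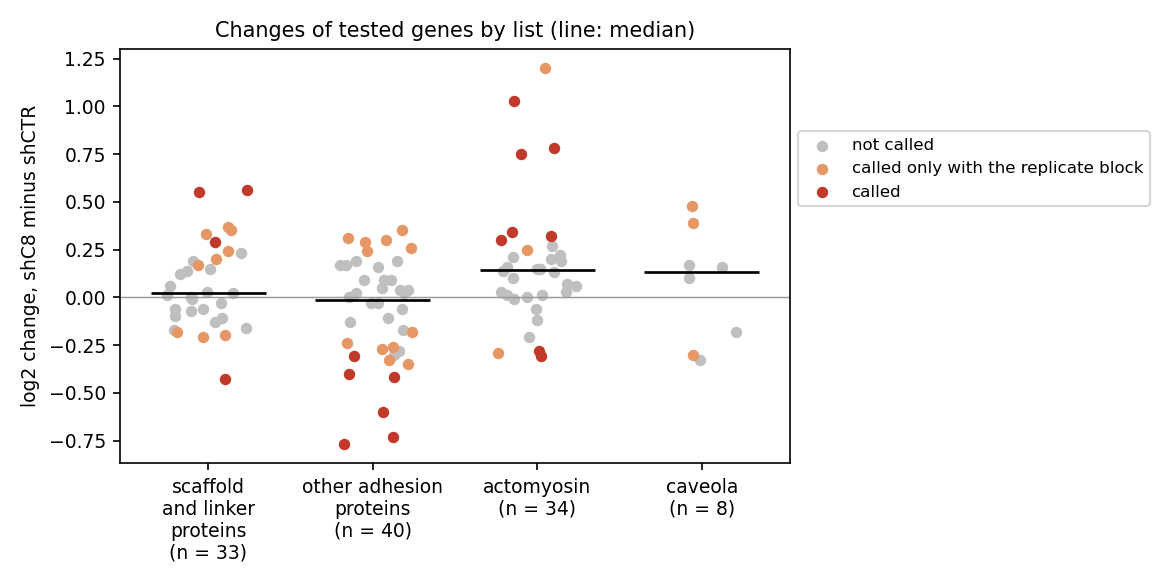
Log2 change, shC8 minus shCTR, of every tested gene in 4 lists; red points passed limma's adjusted p of 0.05, orange points passed only with the replicate block, and the line is the median. The scaffold and linker proteins lie between -0.43 and 0.56, and other adhesion proteins reach -0.77. The highest actomyosin point, at 1.20, is TAGLN, which was not called (limma adjusted p = 0.0759) and is named after its values were seen. MYL9, which was called, is at 1.03.

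Of the 35 genes, 24 overlap another annotated gene, among them FERMT2, TLN2 and LIMS1 with antisense genes, and whether counting used the strand is not given in the sources used here.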

How the data were processed

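Gene expression was analysed in 3 shC8 and 3 shCTR libraries of U87. The authors deposited FPKM per gene symbol; TopHat, Cufflinks, Cuffdiff and hg38 appear, with no version or role, per the submitters' processing notes. The annotation and any further scaling are not given in the sources used here. No sample column was left out (0 not used). FPKM carries no counts, so no count model or counting interval was used, and absolute depth is unknown. FPKM divides by a library total, so abundant genes that change can shift the others.

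The deposited FPKM values were taken to log2(FPKM + 1) and tested with limma 3.58.1 in R 4.3.3 (mean trend, two-sided, Benjamini-Hochberg over the 11598 genes that averaged 1 FPKM or more). A pseudocount understates the fold change of low genes. Summaries used Python 3.11.15. The fit was tested on simulated data, where it recovered 51% of log2 changes of 0.5 and 90% of log2 changes of 1. Of its calls there, 4.08% were false. The simulated libraries were drawn independently, without the shared deviations of same-numbered libraries. Only 100 of the 11598 genes were changed by each size, where 1401 genes were called in the real data. Recovery after the adjustment depends on that share, so these percentages may not hold for the real data. Promoter windows came from RefSeq and positions from GENCODE 29.

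Replicate numbers were checked for pairing: deviations from the group means of same-numbered libraries correlated at 0.397, 0.266 and 0.291, and each number was therefore read as a pair. This comes from the data, and no label says what a number shares. The main fit has no block. All 35 genes and CASP8 are named, and up to 4 called genes with the largest change from each other list. Genes and lists were chosen with earlier results of these data known. Alternatives changed the pseudocount, filter, scaling, trend, block, a term for the range of the deposited column numbers, or left out each library in turn. Results on 1 further gene list are not reported here.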

Additional observations from a re-analysis of the deposited data

How the results depend on the processing

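The replicate block gave 3086 called genes, against 1401 without it, and all 1401 were among them. It called 13 focal adhesion genes, 18 other adhesion proteins, 3 caveola genes and 1 gene of the SRF list. Of all calls, 59.1% were higher in shC8 as deposited, 49.3% after quantile normalization and 43.1% after median-of-ratios scaling, with medians over all genes of 0.0376, 0.00378 and -0.00752 (log2). Actomyosin calls were 4 under median-of-ratios scaling, and caveola calls were 1 with quantile normalization and also 1 with median-of-ratios scaling. The median of the focal adhesion genes was -0.0331 under median-of-ratios scaling.

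Small changes reversed: CRK to -0.0331 under median-of-ratios scaling, GIT2 to -0.0167 with quantile normalization and -0.0195 with median-of-ratios scaling, PARVB to -0.0405 under median-of-ratios scaling and -0.0137 when the range of column numbers was a term, and NEDD9 over BCAR1 to 0.463 with a pseudocount of 0.1. Median-of-ratios scaling divided the shC8 libraries by 1.01 to 1.03 and the shCTR libraries by 0.977 to 0.99, so it lowered each log2 change. NEDD9 was at most 0.149 FPKM in any library, well under the pseudocount of 1 in the main fit. The cause of the other reversals was not tested. FERMT2 was called in every setting run.

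With the column range as a term MYLK, CNN1 and MYL6 were no longer called (limma adjusted p = 0.0677, 0.0577 and 0.0662). Leaving out 1 library gave 477 (without shC8 replicate 3) to 1346 (without shC8 replicate 1) called genes, 1 to 4 focal adhesion genes, 3 to 6 other adhesion proteins, 1 to 6 actomyosin genes and 0 to 3 caveola genes, with fewer libraries in each fit. Log2 changes ranged from -0.00284 to 0.0384 for CRK, -0.268 to 0.00895 for FLNC, -0.0931 to 0.08 for TNS3, -0.0639 to 0.0131 for ILK, -0.0314 to 0.0434 for PARVB and -0.0438 to 0.0329 for ZYX. Ratio differences ranged from -0.174 to 0.0589 for TNS1 over TNS3, -0.102 to 0.22 for ENAH over VASP and -0.0858 to 0.105 for PAK2 over PAK1.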
